A study of Mus musculus with 6 samples.

Results

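The peroxiredoxin and thioredoxin system was followed through 10 genes: the 6 peroxiredoxins *Prdx1* to *Prdx6*, the cytosolic thioredoxin *Txn1*, the thioredoxin reductases *Txnrd1* and *Txnrd2*, and the sulfiredoxin *Srxn1*. The genes were taken by symbol. All 10 had a row among the 17193 genes listed, and all 10 were among the 12255 genes with a mean of at least 1 FPKM (fragments divided by transcript length and by sequencing depth) that entered the test. The RNA came from astrocytes separated from the brains of wild-type C57BL/6 mice aged 3 months, either mock-treated (Mock, 3 libraries) or given quinpirole (Quinpirole, 3 libraries), an agonist of the dopamine receptor DRD2. The study isolated the cells with microbeads against ACSA-2, an astrocyte surface antigen, and asked which genes respond to DRD2 activation in astrocytes. The dose, the duration and whether each library came from 1 mouse are not given for these samples, so the p-values measure the spread between libraries, which may be partly technical.

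Peroxiredoxins are peroxidases that reduce hydrogen peroxide and organic peroxides through a reactive cysteine. In most of them the oxidized cysteine is reduced again by thioredoxin, thioredoxin is reduced by thioredoxin reductase at the expense of NADPH, and a peroxiredoxin cysteine that has been oxidized too far is repaired by sulfiredoxin. In brain, astrocytes are known for a large antioxidant capacity that serves neighbouring neurons, and several genes of this system, *Prdx1*, *Txnrd1* and *Srxn1* among them, are textbook targets of the transcription factor Nrf2. *Prdx1* and *Txnrd1* stand in the heat map of Nrf2 targets that the study drew from these same libraries, so the direction of these genes here is not independent evidence.

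Nrf2 binds the antioxidant response element, whose core was searched as TGACNNNGC on both strands of the promoter windows that RefSeq gives on GRCm38.p6, which run from 250 bases before to 50 bases after an annotated start. The related letters TGAGTCA, bound by AP-1 factors, can overlap that core and were searched in the same way. The windows covered 9 of the 10 members in 11 promoters, and *Prdx6* had no entry. The core was found in 3 promoters of 3 members, *Prdx1*, *Txnrd1* and *Srxn1*, and in 12.4% of all 32851 promoters. TGAGTCA was found in *Prdx1* and *Srxn1* and in 5.2% of all promoters. The 3 windows with a match are shown first, followed by those of *Txn1* and *Prdx5*, the members with the largest changes on the deposited scale, in which neither motif was found. Capitals mark the matches.
*Prdx1*, chr4:116685349-116685648, plus strand: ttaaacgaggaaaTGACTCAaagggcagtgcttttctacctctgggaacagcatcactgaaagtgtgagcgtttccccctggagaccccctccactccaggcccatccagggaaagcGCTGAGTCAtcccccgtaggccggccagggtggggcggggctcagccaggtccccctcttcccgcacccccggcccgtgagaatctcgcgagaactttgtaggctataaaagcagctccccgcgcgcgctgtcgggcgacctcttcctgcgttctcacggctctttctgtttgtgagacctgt
*Srxn1*, chr2:152105274-152105573, plus strand: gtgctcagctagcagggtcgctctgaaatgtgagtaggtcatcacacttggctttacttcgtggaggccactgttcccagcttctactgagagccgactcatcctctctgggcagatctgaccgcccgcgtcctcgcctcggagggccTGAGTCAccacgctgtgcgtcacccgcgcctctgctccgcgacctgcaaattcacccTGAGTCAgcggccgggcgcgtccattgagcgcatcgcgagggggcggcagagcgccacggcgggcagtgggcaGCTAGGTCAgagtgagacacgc
*Txnrd1*, chr10:82858956-82859255, plus strand: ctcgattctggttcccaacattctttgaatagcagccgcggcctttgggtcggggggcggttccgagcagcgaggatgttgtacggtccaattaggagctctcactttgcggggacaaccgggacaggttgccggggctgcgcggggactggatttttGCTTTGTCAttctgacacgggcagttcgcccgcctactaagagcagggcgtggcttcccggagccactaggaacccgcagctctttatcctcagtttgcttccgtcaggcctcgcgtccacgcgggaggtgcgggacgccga
*Txn1*, chr4:57956362-57956661, minus strand: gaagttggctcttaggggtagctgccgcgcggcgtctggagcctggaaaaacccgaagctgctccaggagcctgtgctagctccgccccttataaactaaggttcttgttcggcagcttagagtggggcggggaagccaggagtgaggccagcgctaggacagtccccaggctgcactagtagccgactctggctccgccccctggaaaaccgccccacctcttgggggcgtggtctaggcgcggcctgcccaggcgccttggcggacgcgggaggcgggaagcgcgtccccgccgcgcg
*Prdx5*, chr19:6910057-6910356, minus strand: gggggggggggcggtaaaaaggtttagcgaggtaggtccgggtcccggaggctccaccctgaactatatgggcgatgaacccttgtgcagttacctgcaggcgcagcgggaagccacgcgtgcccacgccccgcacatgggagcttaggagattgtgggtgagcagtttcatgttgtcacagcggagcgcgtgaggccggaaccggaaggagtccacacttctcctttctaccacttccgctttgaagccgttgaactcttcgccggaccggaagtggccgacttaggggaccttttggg
In *Prdx1* the core read TGACTCAGC on the minus strand at position -133 from the annotated start, where it overlapped the AP-1 motif at position -131, and a second AP-1 motif lay at position -237. In *Srxn1* the core read TGACCTAGC on the minus strand at position 28 after the start, and the AP-1 motif occurred at positions -102 and -45. At position -45 the motif is followed by GC, so the letters there read TGAGTCAGC. They differ from the searched core by G in place of its C. Cores with that G were not searched and are not counted in the shares of promoters given. The *Txnrd1* match, TGACAAAGC on the minus strand at position -92, lay in 1 of the 3 *Txnrd1* promoters listed. These matches describe letters in the windows and carry no measurement of binding.

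The thioredoxin reductases are selenoproteins, and the codon for their catalytic selenocysteine is a TGA read through as an amino acid. The GENCODE M21 transcripts of *Txnrd1* (chromosome 10) and *Txnrd2* (chromosome 16), and of the related *Txnrd3* (chromosome 6), each hold 1 such in-frame TGA, with 1 codon between it and the stop codon. It is shown in capitals in the last codons of each reading frame.
*Txnrd1*: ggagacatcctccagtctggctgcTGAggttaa
*Txnrd2*: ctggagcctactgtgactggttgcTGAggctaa
*Txnrd3*: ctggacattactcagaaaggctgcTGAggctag
Thioredoxins share an active site with a pair of cysteines, whose codons are shown in capitals for cytosolic *Txn1* (chromosome 4) and mitochondrial *Txn2* (chromosome 15).
*Txn1*: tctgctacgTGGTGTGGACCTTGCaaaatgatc
*Txn2*: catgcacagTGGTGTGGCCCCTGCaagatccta

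Depth was not recorded in the FPKM tables and was estimated from the steps between the lowest values, at 22500000 to 27600000 fragments per library. Between 60.3% and 72.2% of the low values lay within 0.1 of a whole fragment, against 20% by chance at a depth fixed in advance. The depth was fitted to these same values, so the contrast overstates the support for it. At that depth and over the whole exonic length, the members were represented by between 942 fragments (*Txnrd2*) and 63001 fragments (*Prdx6*) in a library. These numbers may be too high for genes with several transcripts, because the lengths behind the FPKM values are not given. The longest transcript has 2874 of 4401 exonic bases for *Txnrd2* and 2558 of 4804 for *Prdx6*. Summed over all listed genes, FPKM came to 401769 to 413730 in Mock libraries and 425244 to 437164 in Quinpirole libraries, a mean difference of 5.83% that is part of every fold change given on the deposited scale. Astrocyte markers were present in every library: *Gfap* lay between 482 and 560 FPKM and *Aldh1l1* between 165 and 182 FPKM. *Slc1a2*, the main glutamate transporter of astrocytes, lay between 5.15 and 8.55 FPKM. Markers of other cells were also present. *Acta2*, the smooth muscle actin, lay at 2518 to 2881 FPKM. The other mural markers listed were far lower, *Pdgfrb* at 20.7 to 27.2 FPKM and *Rgs5* at 0.18 to 0.42 FPKM. *C1qa*, a microglial gene, lay at 198 to 252 FPKM, whereas the 6 neuronal markers summed to less than 2 FPKM in each library.

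The members spanned a wide range of levels on the FPKM scale, which is per transcript length. *Prdx6* was the most abundant, with 441 ± 19.1 FPKM in the Mock group and 496 ± 6.39 FPKM in the Quinpirole group (mean ± SD, n = 3 each), and ranked 87 of 12255 genes. It was followed by *Prdx5*, *Prdx2*, *Prdx1*, *Txn1*, *Txnrd1*, *Prdx4*, *Prdx3*, *Srxn1* and *Txnrd2*, whose mean over the 6 libraries was 10.6 FPKM at rank 6405. Each member exceeded the next in 6 of 6 libraries, and the ranges of neighbours over all libraries overlapped only for *Prdx1* and *Txn1*. The 6 peroxiredoxins summed to between 1001 and 1086 FPKM in Mock libraries and between 1175 and 1229 FPKM in Quinpirole libraries.

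*Prdx6*, *Prdx5* and *Txn1* together with *Prdx1* passed the test, all higher after quinpirole. The comparison used limma on log2(FPKM + 1) with Benjamini-Hochberg adjustment over the 12255 genes, and an adjusted p under 0.05 was required. Of the 10 members, 4 rose and 0 fell, against 5.74% of all tested genes that rose and 5.18% that fell. At an unadjusted p under 0.05 there were 9 members higher, all but *Txnrd2*, against 17.3% of all tested genes. For 9 of the 10 members, every Quinpirole library lay above every Mock library, which held for 20.0% of all tested genes. The median log2 fold change was 0.17 over the members and 0.02 over all tested genes. The members were chosen with earlier results of these data known, so these contrasts with all tested genes are a description only. The plot of levels by library shows these values for each member.

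**Figure D1:**
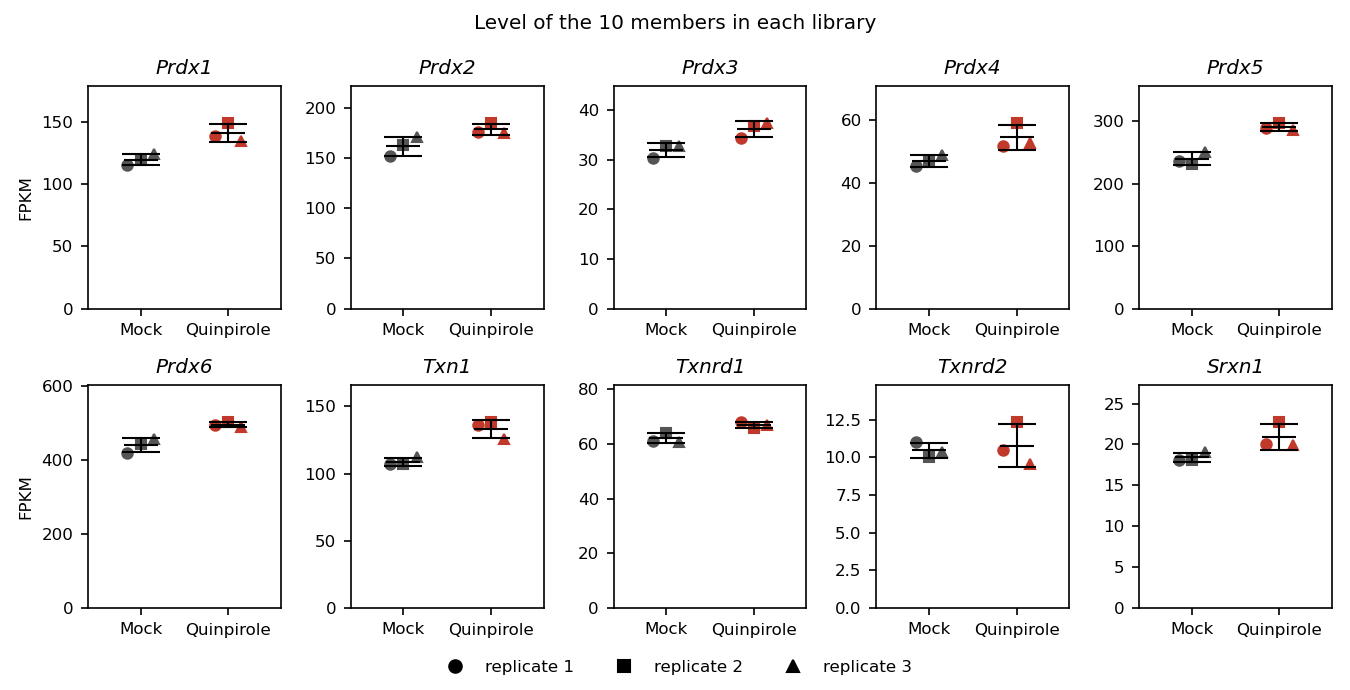
FPKM (vertical axis, from 0) of each of the 10 members in the 3 Mock libraries (grey) and the 3 Quinpirole libraries (red); marker shapes stand for the replicate numbers, and bars give the mean ± SD of each group (n = 3). The Quinpirole points lie above the Mock points in every panel except *Txnrd2*, where they overlap.

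The 2-Cys peroxiredoxins of the cytosol, *Prdx1* and *Prdx2*, are among the most abundant peroxidases of many cells and depend on thioredoxin. *Prdx1* (chr4:116685544-116700822) measured 115, 119.6 and 124 FPKM in Mock libraries 1 to 3 and 138, 149 and 135 FPKM in Quinpirole libraries 1 to 3. The groups did not overlap, and the Quinpirole mean was 17.6% higher. Its log2 fold change was 0.23 (SE 0.05, limma adjusted p = 0.0329). *Prdx2* (chr8:84969587-84974834) measured 152, 163 and 171 FPKM in Mock libraries and 176, 185 and 175 FPKM in Quinpirole libraries. Its groups stood apart by less, between 171 and 175 FPKM, and its log2 fold change of 0.14 (95% interval 0.03 to 0.26) did not pass (adjusted p = 0.0999). Some reads of both genes may be shared with other loci: 10.9% of the 50-base words of the longest *Prdx1* transcript also occur in 3 processed pseudogenes, and 23.8% of those of *Prdx2* occur in other genes, among them the pseudogene *Tdpx-ps1* and the overlapping *Junb* and *Rnaseh2a*. Of the *Prdx2* exonic bases 11.5% lie within exons of *Junb* or *Rnaseh2a*, which had adjusted p-values of 0.496 and 0.676.

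*Prdx3*, the peroxiredoxin of the mitochondrial matrix, and *Prdx4*, that of the endoplasmic reticulum and the secretory pathway, were lower in level. *Prdx3* (chr19:60864051-60874556) measured 30.4, 32.8 and 32.9 FPKM in Mock libraries and 34.3, 36.8 and 37.4 FPKM in Quinpirole libraries. The groups did not overlap, but the log2 fold change of 0.17 (95% interval 0.05 to 0.29) did not pass (adjusted p = 0.0678). *Prdx4* (chrX:155323918-155340754) measured 45.4, 46.5 and 48.9 FPKM in Mock libraries and 51.8, 59.0 and 52.5 FPKM in Quinpirole libraries. Quinpirole library 2 was well above the other two, and the log2 fold change of 0.21 (95% interval 0.07 to 0.34) did not pass (adjusted p = 0.0600).

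*Prdx5*, an atypical 2-Cys peroxiredoxin found in mitochondria, peroxisomes and the cytosol, had the smallest p-value of the members. *Prdx5* (chr19:6906697-6910106) measured 237, 232 and 251 FPKM in Mock libraries and 289, 297 and 285 FPKM in Quinpirole libraries. The gap between the groups, from 251 to 285 FPKM, was wider than the spread within either group, and the mean was 21.1% higher. The log2 fold change was 0.28 (SE 0.04, limma adjusted p = 0.0225). Of the *Prdx5* exonic bases 19.1% lie within exons of *Trmt112*, a subunit of methyltransferases, and the kit used is not described as strand-specific. *Trmt112* itself measured 36.6, 41.8 and 38.8 FPKM in Mock libraries and 41.1, 41.7 and 40.7 FPKM in Quinpirole libraries, with a log2 fold change of 0.07 (adjusted p = 0.367).

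*Prdx6*, the 1-Cys peroxiredoxin, differs from the others in that it uses glutathione rather than thioredoxin as its reductant and also has phospholipase activity. *Prdx6* (chr1:161240112-161251219) measured 421, 444 and 459 FPKM in Mock libraries and 497, 503 and 490.0 FPKM in Quinpirole libraries. The groups did not overlap, and Mock library 1 was the lowest of all. The log2 fold change was 0.17 (SE 0.04, limma adjusted p = 0.0449), or 12.5% of the Mock mean. *Prdx6* made up 42.1% to 42.8% of the summed peroxiredoxin FPKM in Mock libraries and 40.9% to 41.9% in Quinpirole libraries, while the share of *Prdx5* was 22.3% to 23.7% and 24.2% to 24.4%. Neither share overlapped between the groups, that of *Prdx6* being lower and that of *Prdx5* higher in the Quinpirole group. The share of *Prdx2* also stood apart and was lower, at 15.2% to 15.7% in Mock libraries and 14.8% to 15.0% in Quinpirole libraries. For each of these shares the two-sided exact permutation test gave p = 0.1, the smallest that 3 against 3 libraries allow (adjusted p = 0.183 over the 11 shares, sums and ratios compared).

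*Txn1*, the cytosolic thioredoxin that hands electrons to peroxiredoxins, ribonucleotide reductase and other enzymes, had the largest change of the members on the deposited scale, though not after the length correction. *Txn1* (chr4:57943373-57956411) measured 107, 107 and 112 FPKM in Mock libraries and 136, 138 and 126 FPKM in Quinpirole libraries. The groups stood clearly apart, and the mean was 22.6% higher. The log2 fold change was 0.29 (SE 0.05, limma adjusted p = 0.0236). Only 2.5% of its 50-base words recur elsewhere, in the pseudogene *Txn-ps1*.

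The reductases did not pass the test. *Txnrd1* (chr10:82833951-82897712), which reduces cytosolic thioredoxin, measured 61.2, 64.1 and 60.8 FPKM in Mock libraries and 67.9, 65.9 and 66.9 FPKM in Quinpirole libraries. The groups did not overlap, and its log2 fold change was 0.11 (95% interval 0.02 to 0.19, adjusted p = 0.0949). The ratio of *Txn1* to *Txnrd1* FPKM was 1.67 to 1.85 in Mock libraries and 1.88 to 2.10 in Quinpirole libraries (two-sided exact permutation p = 0.1, adjusted p = 0.183). *Txnrd2* (chr16:18426384-18479073), the mitochondrial reductase, measured 11.0, 10.04 and 10.3 FPKM in Mock libraries and 10.5, 12.3 and 9.52 FPKM in Quinpirole libraries. Its groups overlapped, with both the highest and the lowest value of all in the Quinpirole group, and its log2 fold change was 0.03 (95% interval -0.17 to 0.24, adjusted p = 0.829).

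*Srxn1* (chr2:152105516-152111376), which restores over-oxidized peroxiredoxins, measured 18.1, 18.1 and 19.0 FPKM in Mock libraries and 20.1, 22.7 and 19.9 FPKM in Quinpirole libraries. The groups did not overlap, but Quinpirole library 2 stood above the other two, and the log2 fold change of 0.17 (95% interval 0.03 to 0.31) did not pass (adjusted p = 0.101). The summed peroxiredoxin FPKM was 55.2 to 57.3 times that of *Srxn1* in Mock libraries and 54.1 to 59.1 times in Quinpirole libraries, so these ranges overlapped.

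Within each group, 1 library held most of the highest values. Mock library 3 held the highest value of its group for 8 of the 10 members, and Quinpirole library 2 for 8 of 10. These 2 libraries also had the largest FPKM sum of their group. Quinpirole library 3 was lowest of its group for 7 members and Mock library 1 for 6. The coefficient of variation within a group ranged from 1.29% (*Prdx6*, Quinpirole) to 13.2% (*Txnrd2*, Quinpirole). After each library was scaled to an equal sum of FPKM, which was chosen after seeing the data, Mock library 3 was still highest for 7 members and Quinpirole library 2 for 6.

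The size of the changes depended on how the libraries were scaled. With an equal sum of FPKM, the median log2 fold change of all tested genes moved from 0.02 to -0.06 and that of the members from 0.17 to 0.09, and the share of called genes that were higher moved from 52.6% to 15.1%. *Txn1* (0.21, adjusted p = 0.0246), *Prdx5* (0.19, adjusted p = 0.0219) and *Prdx1* (0.15, adjusted p = 0.0458) passed in that fit, *Prdx6* (0.09, adjusted p = 0.113) did not, and *Txnrd2* turned to -0.04. In that fit 1.80% of all tested genes were called higher and 10.1% lower. The Quinpirole libraries then lay above all Mock libraries for 6 members and for 8.91% of all genes. With quantile normalization *Prdx5* (0.15, limma adjusted p = 0.0279) and *Txn1* (0.20, adjusted p = 0.0301) passed. *Prdx1* (0.14, adjusted p = 0.0674) did not, and *Prdx6* was close to no change (0.01, adjusted p = 0.821). The changes as deposited and after correction are compared in the plot of the members' fold changes.

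**Figure D2:**
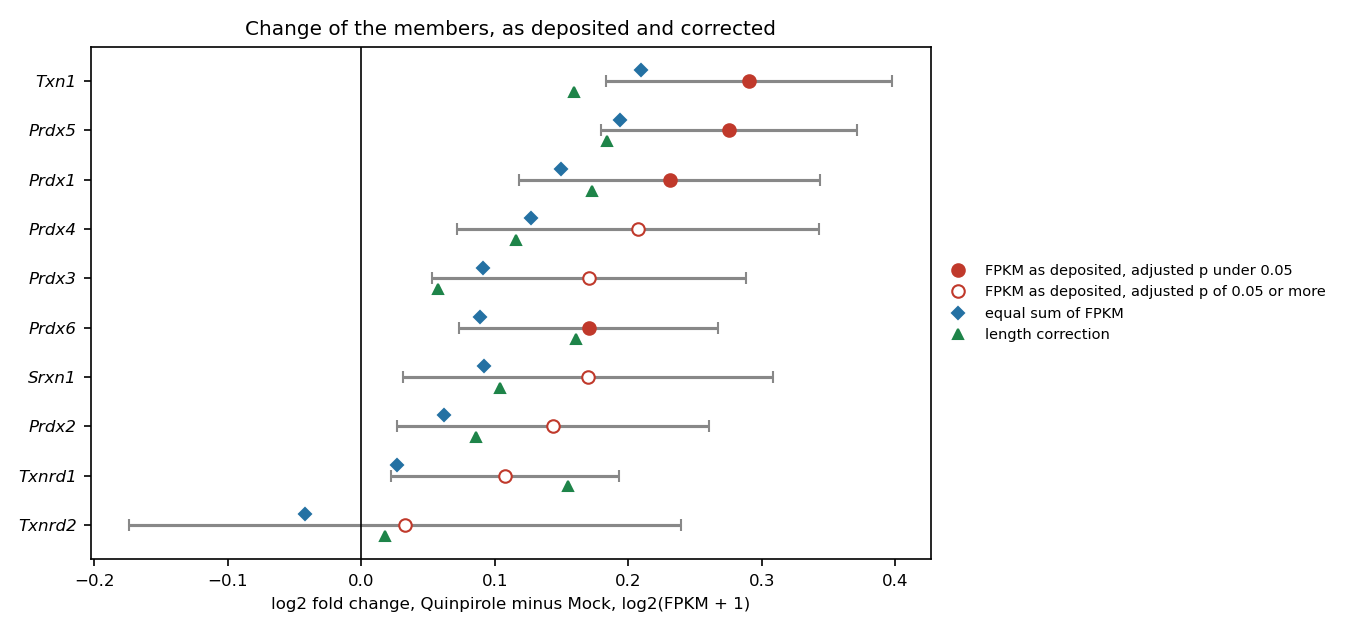
Log2 fold change, Quinpirole minus Mock, on the log2(FPKM + 1) scale (horizontal axis) for each member (vertical axis): circles with 95% intervals are values as deposited, filled where the adjusted p was under 0.05; diamonds are values after scaling to an equal sum of FPKM; triangles are values after the length correction. *Txn1* and *Prdx5* are the largest on the deposited scale, and *Txnrd1* is the member whose value rises under the length correction, from 0.11 to 0.15.

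Exonic length moved with the fold change across the transcriptome, and most members are short. This length joins all annotated exons of a gene and can exceed that of every single transcript. For *Txnrd1* it is 7086 bases, whereas the longest transcript has 3622, and for *Prdx6* 4804 against 2558. The bins and the correction used the joined length, and transcript length was not tried. When the tested genes were ordered by exonic length and divided into 5 equal bins, the median log2 fold change went from 0.12 in the shortest bin to -0.11 in the longest, and from the shortest on the bins held 4, 3, 2, 1 and 0 members. All 10 members lay above the median of their own bin. After a loess correction of each library for length, *Prdx5* (0.18, adjusted p = 0.0324) and *Txnrd1* (0.15, adjusted p = 0.0453), the longest member at 7086 exonic bases, passed the test. *Txn1*, the shortest at 1051 bases, changed by 0.16 (adjusted p = 0.0506), *Prdx1* by 0.17 (adjusted p = 0.0550) and *Prdx6* by 0.16 (adjusted p = 0.0551). With a further correction for GC content *Prdx5* (0.22, limma adjusted p = 0.0354) and *Txnrd1* (0.15, adjusted p = 0.0471) passed. *Prdx6* (0.16, adjusted p = 0.0583), *Txn1* (0.15, adjusted p = 0.0609) and *Prdx1* (0.13, adjusted p = 0.0997) did not. The part of length in the members' differences was not tested beyond such corrections.

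**Figure D3:**
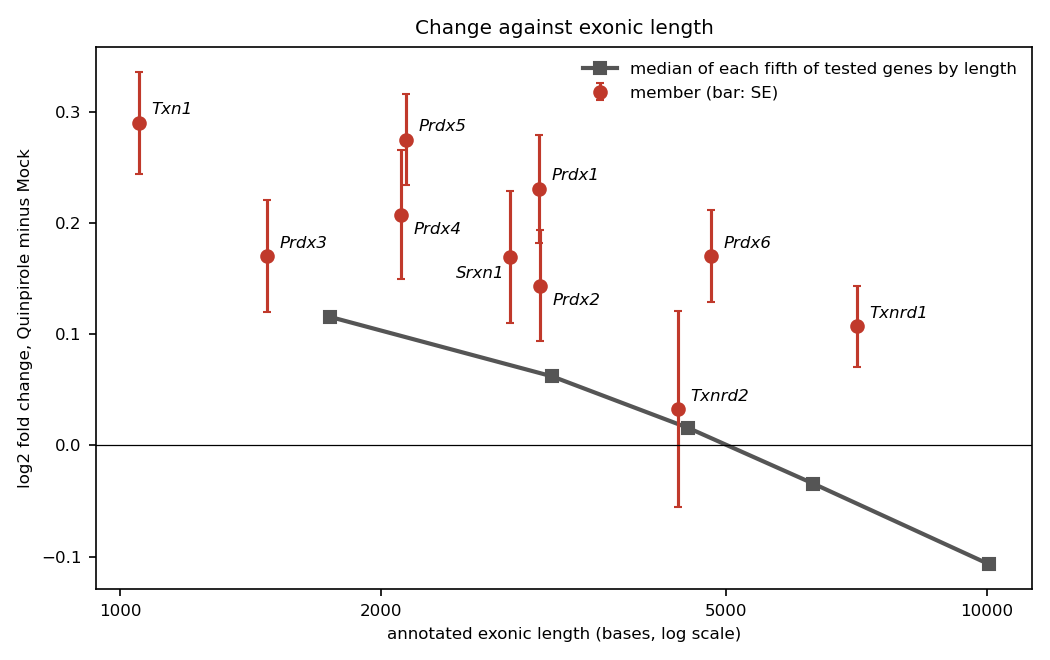
Log2 fold change, Quinpirole minus Mock (vertical axis), against annotated exonic length in bases (horizontal axis, log scale). Red points are the 10 members with their SE, and grey squares joined by a line are the medians of the 5 length bins of the tested genes, from 0.12 to -0.11; every member lies above the median of its bin, *Txnrd2* by the least.

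The calls were also made with 1 library left out at a time, which leaves 2 libraries against 3. Without Mock library 1, Mock library 2, Quinpirole library 1 or Quinpirole library 2, 0 members passed the adjusted limma threshold, and 6 to 8 members had an unadjusted p under 0.05, against 23.6% to 27.5% of all tested genes. Without Quinpirole library 3, 2 members passed, and without Mock library 3, 4. The number of genes called among all tested genes changed likewise, from 1339 to between 3 and 25 without one of the first 4 libraries, 210 without Quinpirole library 3 and 1215 without Mock library 3. The log2 fold changes ranged from 0.26 to 0.33 for *Txn1*, from 0.25 to 0.31 for *Prdx5*, from 0.19 to 0.26 for *Prdx1* and from 0.14 to 0.20 for *Prdx6* over these fits. Apart from *Txnrd2*, which was -0.06 without Quinpirole library 2, the members stayed higher after quinpirole in each of these 6 fits.

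Of the 47 other genes of the pathway that were listed beside the members, 11 rose and 1 fell, against 5.74% and 5.18% of all tested genes, and their median log2 fold change was 0.11 against 0.02 over all tested genes. These lists too were chosen with earlier results of these data known, so their counts are a description only. With an equal sum of FPKM, 3 of the 47 were called higher (*Rrm2*, *Txndc12* and *Pstk*) and 2 lower (*Sesn3* and *Txnip*), against 1.80% and 10.1% of all tested genes. None of the 47 passed in limma without Mock library 1, Mock library 2, Quinpirole library 1 or Quinpirole library 2, where 15 to 18 had an unadjusted p under 0.05 against 23.6% to 27.5% of all tested genes. There were 3 that passed without Quinpirole library 3 and 9 without Mock library 3.

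Among the other thioredoxins, glutaredoxins and *Txnip*, 4 of 11 rose and 0 fell, against 5.74% and 5.18% of all tested genes. *Glrx*, the cytosolic glutaredoxin, changed from 14.7 ± 0.538 to 17.9 ± 1.15 FPKM (log2 fold change 0.27, limma adjusted p = 0.0347). *Glrx3*, a glutaredoxin that handles iron-sulfur clusters, changed from 66.1 ± 1.57 to 76.4 ± 3.45 FPKM (0.21, adjusted p = 0.0339). *Txnl1*, a thioredoxin-like protein of the proteasome, rose by 0.19 (adjusted p = 0.0410), and *Txnl4a*, a spliceosome protein with a thioredoxin fold, by 0.32 (adjusted p = 0.0337). With an equal sum of FPKM none of these 4 passed: *Glrx* was at 0.19 (adjusted p = 0.0522), *Glrx3* at 0.12 (adjusted p = 0.0840), *Txnl1* at 0.11 (adjusted p = 0.158) and *Txnl4a* at 0.24 (adjusted p = 0.0659). *Txnip*, which binds and inhibits thioredoxin, measured 68.3, 69.9 and 71.7 FPKM in Mock libraries and 66.0, 65.9 and 62.2 FPKM in Quinpirole libraries. All Quinpirole values of *Txnip* lay below all Mock values, but the log2 fold change of -0.11 did not pass (adjusted p = 0.105). It passed, as lower, with an equal sum of FPKM (-0.19, adjusted p = 0.0253) and with the length correction (-0.17, adjusted p = 0.0454).

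*Txn2* and *Txnrd3* did not pass the test. *Txn2*, the mitochondrial thioredoxin, measured 19.7, 36.3 and 24.7 FPKM in Mock libraries and 21.2, 34.3 and 21.1 FPKM in Quinpirole libraries. The second library of each group was high, the groups overlapped, and the log2 fold change of -0.07 (95% interval -0.65 to 0.51, adjusted p = 0.874) turned positive when Mock library 2, Quinpirole library 1 or Quinpirole library 3 was left out. *Txnrd3*, a thioredoxin and glutathione reductase, lay between 3.59 and 4.34 FPKM in all libraries (0.05, adjusted p = 0.690).

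Thioredoxin-domain proteins of the secretory pathway had 4 of 16 genes higher and 0 lower, against 5.74% and 5.18% of all tested genes. *Pdia3*, a disulfide isomerase of glycoprotein folding, changed from 164 ± 4.33 to 183 ± 1.75 FPKM (0.16, limma adjusted p = 0.0376), and *Txndc5*, another disulfide isomerase, from 108 ± 0.457 to 119 ± 1.501 FPKM (0.13, adjusted p = 0.0412). *Txndc12* rose by 0.25 (adjusted p = 0.0286) and *Erp44*, which retains client proteins in the early secretory pathway, by 0.20 (adjusted p = 0.0402). With an equal sum of FPKM *Txndc12* passed (0.17, adjusted p = 0.0423), while *Pdia3* was at 0.07 (adjusted p = 0.176), *Txndc5* at 0.05 (adjusted p = 0.286) and *Erp44* at 0.12 (adjusted p = 0.124).

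Among the enzymes and sensors served by thioredoxin, 2 of 10 rose and 0 fell, against 5.74% and 5.18% of all tested genes, and both were subunits of ribonucleotide reductase, which makes deoxyribonucleotides. *Rrm2* measured 31.5, 30.7 and 28.9 FPKM in Mock libraries and 38.1, 38.3 and 38.0 FPKM in Quinpirole libraries (0.32, adjusted p = 0.0225), and *Rrm1* rose by 0.17 (limma adjusted p = 0.0481). *Rrm2* also passed with an equal sum of FPKM (0.24, adjusted p = 0.0297), whereas *Rrm1* was at 0.09 (adjusted p = 0.231) there and at 0.16 (adjusted p = 0.0594) with median ratio scaling. With the length correction *Rrm1* passed in limma (0.28, adjusted p = 0.0359), and it passed in 4 of the 17 alternatives.

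The sestrins, stress-induced proteins that restrain growth signalling, had 0 of 3 genes higher and 1 lower, against 5.74% and 5.18% of all tested genes. *Sesn3* measured 29.0, 28.6 and 27.3 FPKM in Mock libraries and 22.6, 19.8 and 25.0 FPKM in Quinpirole libraries (log2 fold change -0.33, SE 0.08, limma adjusted p = 0.0445). It is also the longest of the 47 genes, at 15269 exonic bases, and was at -0.14 (adjusted p = 0.187) with the length correction. *Sesn1* (-0.09, adjusted p = 0.226) and *Sesn2* (-0.05, adjusted p = 0.562) did not pass. Of the 7 genes of selenocysteine insertion, on which the reductases depend, 1 rose and 0 fell, against 5.74% and 5.18% of all tested genes: *Pstk*, the kinase that prepares the selenocysteine transfer RNA, changed from 7.25 ± 0.451 to 9.54 ± 0.774 FPKM (0.35, adjusted p = 0.0323).

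**Figure D4:**
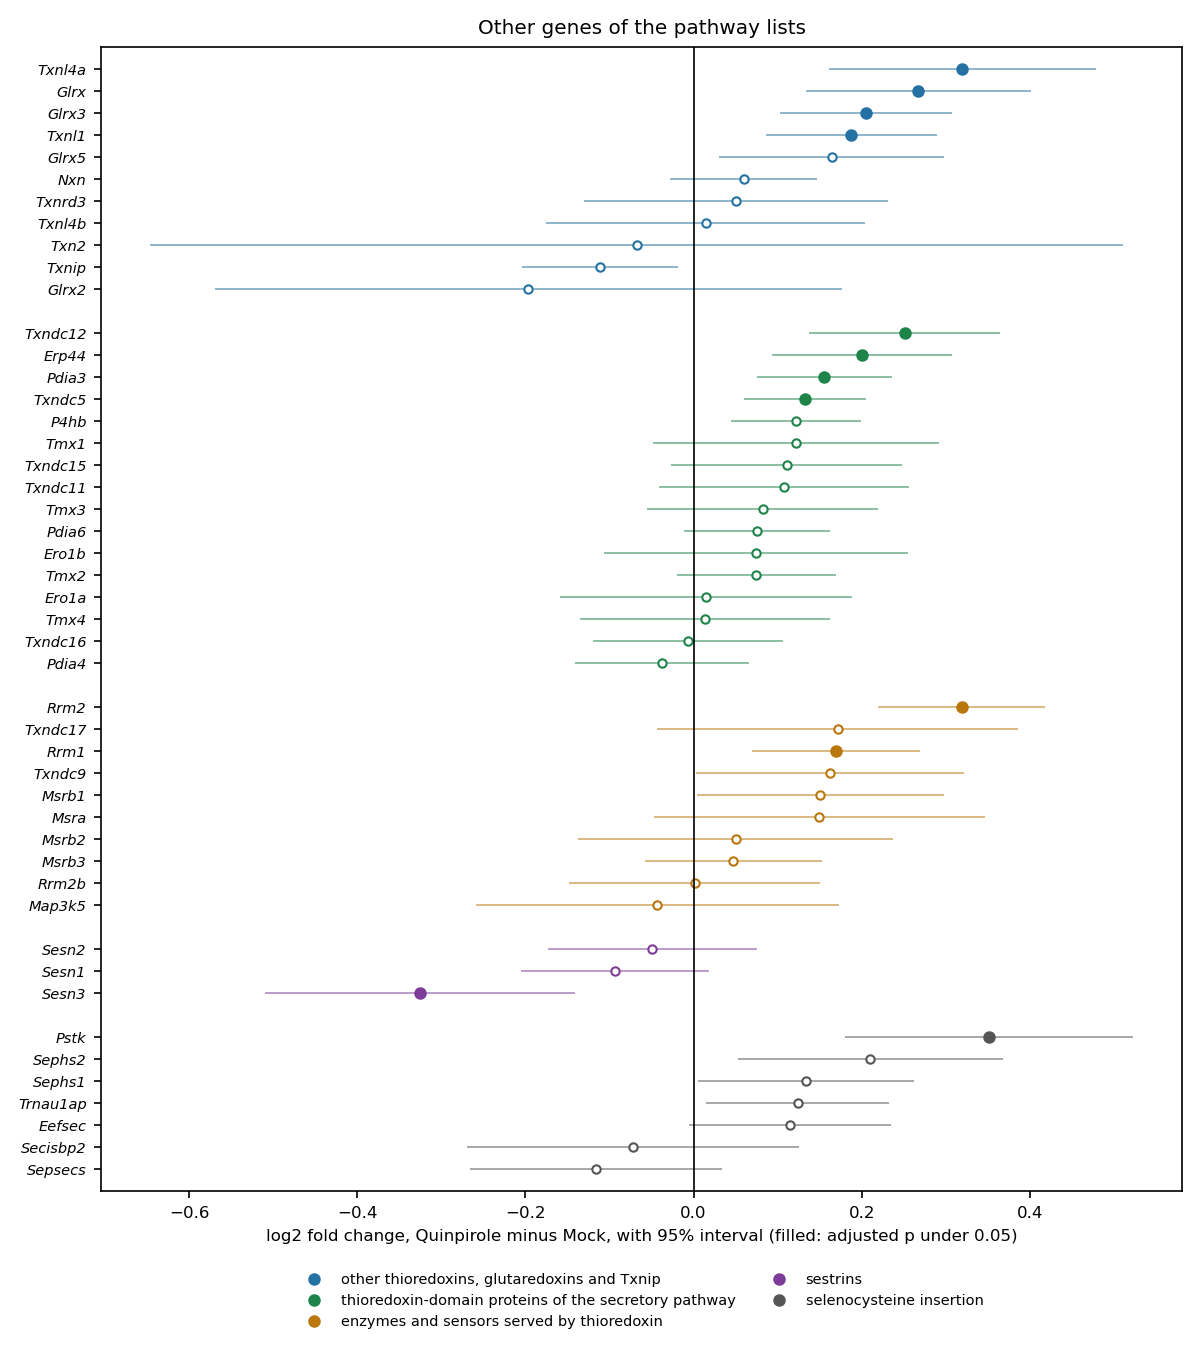
Log2 fold change, Quinpirole minus Mock, with 95% interval (horizontal axis) for the 47 other genes (vertical axis) in 5 lists set apart by colour; filled circles had an adjusted p under 0.05. Of the 12 filled circles, 11 lie to the right of 0 and *Sesn3* lies to the left.

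The profiles most like those of the 2 members in the study's heat map were found by Pearson correlation of log2(FPKM + 1) over the 6 libraries, among 9014 genes with a mean of at least 5 FPKM. For *Prdx1* they were *Tkt*, a transketolase of the pentose phosphate pathway (r = 0.998), *Cd9*, a tetraspanin (r = 0.998), and the ribosomal protein gene *Rpl14* (r = 0.997). For *Txnrd1* they were *Ttc9* (r = 0.993), the selenoprotein gene *Selenot* (r = 0.992) and *Cs*, citrate synthase (r = 0.989). With 6 libraries and so many genes such values are a description only, and they share the FPKM scaling of each library.

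The 10 astrocyte markers summed to 1489 to 1650 FPKM in Mock libraries and to 1478 to 1508 FPKM in Quinpirole libraries, and 2 of them were lower after quinpirole: *Atp1b2*, which encodes ACSA-2 (-0.19, limma adjusted p = 0.0382), and *Slc1a2* (-0.42, adjusted p = 0.0297). The 6 microglial markers summed to 324 to 341 and 343 to 376 FPKM, with 0 called by limma. *C1qa*, the largest part of that sum, was at 0.21 (adjusted p = 0.0526), while *Csf1r* was at -0.16 (adjusted p = 0.0531) and *Cx3cr1* at -0.12 (adjusted p = 0.140), with all Quinpirole libraries below all Mock libraries for both. Of the 3 mural markers *Pdgfrb* fell by 0.30 (adjusted p = 0.0227), while *Acta2* was at 0.11 (adjusted p = 0.171). *Rgs5* did not reach the mean of 1 FPKM needed for the test. The 5 endothelial markers summed to 7.70 to 8.07 FPKM in Mock libraries and to 6.23 to 7.21 FPKM in Quinpirole libraries, and the 2 markers of oligodendrocyte precursors to 2.07 to 2.67 and 1.70 to 1.93 FPKM. The 6 neuronal markers summed to 1.09 to 1.27 FPKM in Mock libraries and 1.30 to 1.54 FPKM in Quinpirole libraries, with *Rbfox3* and *Snap25* under 0.1 FPKM in every library. The 6 oligodendrocyte markers (156 to 176 and 163 to 173 FPKM) and the 3 ependymal markers (121 to 132 and 119 to 127 FPKM) overlapped between the groups. The part of these differences in the members' changes was not tested, and in bulk RNA a change in the share of a cell type cannot be told apart from a change of RNA per cell.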

How the data were processed

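Brain astrocyte mRNA from 3 Mock and 3 Quinpirole mice or pools was sequenced in paired-end reads from poly-A libraries. Before deposit the authors removed adaptors and reads of low quality, aligned the rest to GRCm38 with TopHat2 (version not given), kept alignments with at most 1 mismatch, and gave the expression of each gene as FPKM. The program and annotation behind the FPKM values are not given in the sources used here. FPKM is not a count, so no count test was used.

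Groups came from the treatment labels. Members and gene lists were chosen with earlier results of these data known. The 12255 genes reaching 1 FPKM on average were tested on log2(FPKM + 1), which understates changes of low genes, with limma 3.58.1 in R 4.3.3 (two-sided moderated test with a variance trend, p-values adjusted by Benjamini-Hochberg over all tested genes, threshold 0.05). The test and the depth estimate were checked on simulated data; depth was sought between 15000000 and 35000000 fragments, a range set after seeing the data because multiples of the depth fit the same steps. Lengths, positions and shared 50-base words came from GENCODE M21. The length and GC corrections subtracted a loess fit (span 0.3). Named genes were the members, the 12 other pathway genes past the threshold, 7 fixed partners (*Txn2*, *Txnrd3*, *Txnip*, *Glrx3* and the sestrins), and the 3 profiles nearest to *Prdx1* and *Txnrd1*. The alternatives changed the pseudocount (0.1), the filter (none, or at least 5 FPKM on average), the scaling, the variance trend and the replicate block, or left out each library. Python 3.11.15, pandas 2.3.3, numpy 2.4.6 and matplotlib 3.10.9 were used.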

Additional observations from a re-analysis of the deposited data

How the results depend on the processing

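The members' direction was kept in all but 2 of the 170 comparisons with an alternative, both for *Txnrd2* (-0.042 with an equal sum of FPKM, and -0.060 to 0.11 with 1 library left out, negative without Quinpirole replicate 2). Many of these comparisons could not change a direction. Another filter, no variance trend or the replicate block leaves each member's fold change as it was, and the block does the same after the length correction. Of the 17 alternatives, *Prdx5* passed in 11, *Txn1* in 9, *Prdx1* in 5, *Prdx6* in 4 and *Txnrd1* in 2. The cause was not tested, except that without a filter more genes (17193) entered the adjustment.

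As reported, 1339 genes, 4 members and 12 other pathway genes passed. These counts were 633, 2 and 3 without a filter, 783, 2 and 7 with quantile normalization, 714, 2 and 4 without a variance trend, 509, 2 and 7 with the length correction, and 375, 2 and 3 with the length and GC corrections. With an equal sum of FPKM they were 1456, 3 and 5, the last being 3 higher and 2 lower. With each library left out they ranged from 3 to 1215, from 0 to 4 and from 0 to 9. Higher genes made up 52.6% of calls as deposited, 45.6% with median ratio scaling, 36.1% with quantile normalization, 41% without trend and 15.1% with an equal sum.

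The labels do not say whether the replicate numbers pair the libraries, and they were not used as pairs in the main test. The correlations of same-numbered deviations were 0.026, -0.066 and -0.103. With 3 libraries per group these values cannot decide whether the libraries were paired. With the replicate block 2 genes, 0 members and 0 other pathway genes passed in limma (8 members at an unadjusted p under 0.05), and with the block and the length correction 0, 0 and 0 (6 members).

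Outside the members, with 1 library left out *Txn2* ranged from -0.29 to 0.16 and was positive without Mock replicate 2, Quinpirole replicate 1 or Quinpirole replicate 3. *Txnrd3* turned to -0.015 with an equal sum and with the length correction, with or without the block, and to -0.0005 with the length and GC corrections. With 1 library left out it ranged from -0.0009 to 0.10. Depth was estimated, not recorded, and 3 libraries per group limit the precision.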
